A study of Homo sapiens with 12 samples.

Results

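The genes described are 33 that write, erase or read the acetyl mark on histones, or that carry the erasers as corepressor scaffolds. They were taken by symbol from a list that does not use their values in its rule, although it was drawn up with earlier results of these data known, and all 33 were found among the 25433 genes of the deposited tables. The list holds 10 acetyltransferases, 4 class I, 4 class IIa, 2 class IIb and 1 class IV histone deacetylase (HDAC), 7 sirtuins, 2 BET bromodomain readers and 3 corepressor scaffolds. RNA was sequenced and counted per gene in A549 cells, an established line grown out of a human lung adenocarcinoma with features of alveolar epithelium. One group of 4 libraries came from control cells, a second from cells given TGF-β1 at 10 ng/mL, and the last from cells given TGF-β1 at that dose together with 40 mM sodium acetate, for 2 days. No group given acetate without TGF-β1 and none given another sodium salt was analysed here, so the acetate group is compared with TGF-β1 alone and with control cells only. Acetate was given together with TGF-β1, so steps, rises and falls below are differences between groups and not a course in time. The TGF-β1 libraries serve the comparison with control and also that with acetate. Opposite signs in those comparisons are therefore not independent of each other. The labels name no separate cultures, so a p-value here sets a difference against the spread of 4 libraries that may be technical repeats. No label ties a count column to a sample: columns were placed by which table holds them and by the names of the tables, and every comparison rests on that placement. Libraries are called by their column codes, S1 through S4 for control, S15 through S18 for TGF-β1 and S22 through S25 for the acetate group, and values of single libraries are given in that order.

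Acetyltransferases move an acetyl group from acetyl-CoA to lysines of histone tails, which loosens chromatin and gives bromodomain proteins a place to bind. Zinc-dependent deacetylases of classes I, II and IV and the NAD+-dependent sirtuins remove it. HDAC1, HDAC2 and HDAC3 of class I work inside corepressor complexes built on scaffolds such as NCOR1, SIN3A and RCOR1. Acetate taken up by a cell is turned into acetyl-CoA by acetyl-CoA synthetases. TGF-β1 signals through SMAD proteins, which use the acetyltransferases p300 and CBP as coactivators, and drives A549 cells from an epithelial towards a mesenchymal state. What was measured is RNA of these genes, not protein, enzyme activity or acetylation.

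Total counts ran from 34698057 to 53936023 per library, so 3 counts, used as the floor of detection, equal 0.0556 to 0.0865 CPM (counts of a gene relative to all counts of its library). Such floors cover counting error only. In the check of the treatment, SMAD7, the inhibitory SMAD, lay at 35.8 to 37.7 CPM in control libraries, 89.1 to 94.2 with TGF-β1 and 69.4 to 75.9 with acetate added, and the matrix protein gene TGFBI at 1283 to 1367, 14329.9 to 15243 and 11731 to 12642 CPM. E-cadherin, the adhesion protein of epithelial cells, is encoded by CDH1, which lay at 55.6 to 62.3, 0.882 to 1.72 and 42.5 to 48.7 CPM. All 10 markers of A549 had a group mean above 1 CPM in each group, with summed levels of 10726 to 11363 CPM in control, 4573 to 4980 with TGF-β1 and 5734 to 6600 with acetate. The members of that sum did not move alike. With acetate KRT19 (52.4 to 71.7 CPM, control 32.6 to 40.3) and EPCAM (5.39 to 6.12, control 3.91 to 4.59) lay above control. AKR1B10 (582 to 711 CPM, control 3394 to 3587) and ALDH3A1 (40.9 to 48.3, control 844 to 926) lay far below it. The 4 endothelial markers and 4 of the 5 leukocyte markers are not among the genes of the joined tables; the remaining leukocyte marker, CD68, lay at 9.78 to 12.5 CPM in control, 13.1 to 16.3 with TGF-β1 and 21.6 to 23.3 with acetate. Of 8 markers of type II alveolar cells 5 are in the tables, and they summed to 41.2 to 45.3, 43.4 to 48.6 and 87.0 to 97.1 CPM. Nearly all of that sum was ABCA3, at 38.7 to 43.4, 41.0 to 45.8 and 83.5 to 93.9 CPM. SFTPB, SFTPD, NAPSA and LAMP3 stayed at 2.22 CPM or less in every library, so the doubling of the sum with acetate is mostly that of ABCA3. LAMP3 was also higher with acetate, at 0.595 to 0.969 CPM against 0.225 to 0.470 in control and 0.123 to 0.341 with TGF-β1. For SFTPB, SFTPD and NAPSA the acetate and TGF-β1 groups overlapped. The 5 fibroblast markers, which TGF-β1 can itself induce, summed to 8.67 to 10.9 CPM, 293 to 313 CPM and 231 to 317 CPM. Most of that sum was COL1A1, at 7.90 to 9.93, 286 to 306 and 210 to 299 CPM. LUM was higher with acetate (13.8 to 16.7 CPM) than with TGF-β1 alone (4.01 to 4.82), as was PDGFRA (2.83 to 2.98 against 1.22 to 1.82). PDGFRB was lower (0.425 to 0.847 against 1.10 to 1.95), and DCN overlapped (0.389 to 0.944 against 0.257 to 0.609). The part of these cell markers in the results was not tested. In such bulk samples fewer cells of a kind and less RNA per cell cannot be told apart.

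All 33 genes passed the filter on low counts in each comparison. With TGF-β1, 14 of them rose and 13 fell against control, 81.8% of the list (edgeR quasi-likelihood test, Benjamini-Hochberg adjusted p below 0.05 over 22051 genes). The background is high: 66.9% of all genes tested were called, 34.1% as higher and 32.8% as lower. When acetate was added, 9 rose and 18 fell against TGF-β1 alone, again 81.8%, where 63.7% of 22336 genes were called (33.3% higher, 30.4% lower). Against control, the cells with TGF-β1 and acetate had 11 genes higher and 17 lower, 84.8%, beside a background of 70.6% of 22742 (36.1% higher, 34.4% lower). The calls were more frequent than over all genes, a difference that was not tested, but the changes were not larger in the first 2 comparisons: the median absolute log2 fold change of the list was 0.34 with TGF-β1 and 0.28 with acetate, where all genes had 0.36 and 0.34. Acetate against control gave 0.49 for the list and 0.45 for all genes. The list was not compared with genes of like counts, for its calls or for the size of its changes. Apart from HDAC9 and SIRT4, its genes had 143 counts or more in every library, while the filter admits genes near 10. The 4 values of each group lay apart from those of the other for 27 of the 33 genes with TGF-β1, where this held for 61.4% of all genes. It held for 25 with acetate against TGF-β1 (57.4% of all genes) and for 26 with acetate against control (64% of all genes).

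Few of these genes moved by 2-fold or more. With TGF-β1 the 3 called at that size were HDAC5, HDAC9 and SIRT4, 9.09% of the list against 17.6% of all genes. Acetate moved HDAC9 alone by 2-fold, 3.03% against 12.8%. Between control and TGF-β1 plus acetate there were 5, HDAC5, HDAC10, SIRT1, SIRT4 and SIRT5, 15.2% against 19.8%. How libraries are scaled matters for small changes. Scaling by total counts in place of TMM factors (edgeR's trimmed mean of M-values) moved the median log2 fold change of all genes from 0.02 to -0.09 with TGF-β1, and from 0.03 to 0.16 with acetate against TGF-β1. The split of the list into higher and lower then became 10 and 15 with TGF-β1, 13 and 11 with acetate against TGF-β1, and 12 and 17 with acetate against control. Over all genes the split went from 7518 and 7224 to 6078 and 8676 with TGF-β1, from 7437 and 6792 to 9592 and 4699 with acetate, and from 8221 and 7830 to 8741 and 7237 between acetate and control. Fold changes are given with TMM scaling.

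**Figure D1:**
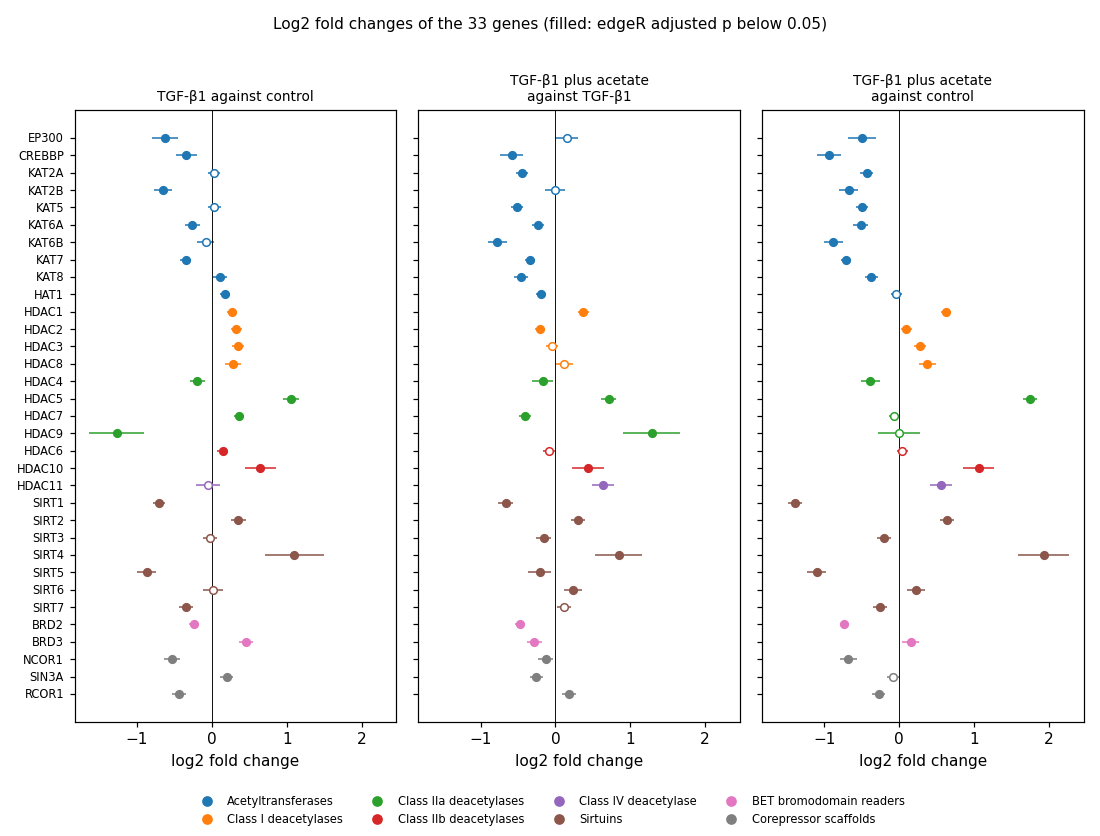
Log2 fold changes of the 33 genes, by class, in the 3 comparisons; the horizontal axis is the log2 fold change of edgeR, each point is 1 gene, bars are 95% intervals from the standard error, and filled points passed an adjusted p of 0.05. HDAC5, SIRT2 and SIRT4 lie right of zero in all 3 panels, SIRT1, CREBBP and KAT7 lie left of zero in all 3, and HDAC9 lies far left with TGF-β1 and far right when acetate was added.

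Of the 10 acetyltransferases, 0 rose and 8 fell when acetate was added to TGF-β1 (33.3% and 30.4% of all genes). Against control 0 were higher and 9 lower (36.1% and 34.4% of all genes), and TGF-β1 alone raised 2 and lowered 5 (34.1% and 32.8%). The median log2 fold change of the class was -0.17 with TGF-β1, -0.39 with acetate against TGF-β1 and -0.51 with acetate against control, where all genes had 0.02, 0.03 and 0.02. With scaling by total counts the class counts were 0 higher and 6 lower, 1 higher and 6 lower, and 0 higher and 9 lower. Over all genes that scaling gave 6078 higher and 8676 lower of 22051, 9592 and 4699 of 22336, and 8741 and 7237 of 22742.

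EP300 and CREBBP encode p300 and CBP, close paralogues that acetylate histone H3 at enhancers. EP300 lay at 81.6, 103, 75.7 and 73.6 CPM in the control libraries, at 60.5, 50.8, 49.8 and 54.8 with TGF-β1 and at 65.6, 61.6, 49.1 and 61.5 with acetate added. Every TGF-β1 library was below every control library, while the acetate libraries spread across the range of the TGF-β1 group and beyond it. The log2 fold change was -0.63 ± 0.088 (SE, n = 4 per group, edgeR adjusted p = 8.5e-06) with TGF-β1. With acetate it was 0.15 ± 0.078 (edgeR adjusted p = 0.108), a 95% interval of -0.00358 to 0.301. That call depends on the libraries and the scaling: the log2 fold change was 0.23 without acetate library S24 (edgeR adjusted p = 0.0026) and 0.18 without TGF-β1 library S15 (edgeR adjusted p = 0.047). Scaled by total counts it was 0.28 (edgeR adjusted p = 0.0077).

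CREBBP fell at both steps. Its levels were 75.9, 85.99, 71.7 and 67.5 CPM in control, 66.2, 60.3, 52.4 and 57.8 with TGF-β1 and 42.7, 38.6, 33.2 and 42.4 with acetate, 3 ranges with no overlap. The log2 fold changes were -0.34 ± 0.072 with TGF-β1 and -0.58 ± 0.077 with acetate (edgeR adjusted p = 4.8e-04 and 7.6e-06), and against control the acetate group was at -0.94 ± 0.082 (edgeR adjusted p = 4.5e-09). Both paralogues were thus lower than control in cells with TGF-β1 and acetate, where EP300 had a log2 fold change of -0.49 (edgeR adjusted p = 1.4e-04).

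KAT2A (GCN5) and KAT2B (PCAF) are alternative catalytic subunits of the SAGA and ATAC coactivator complexes, and they differed in which step lowered them. KAT2A lay at 56.7, 50.5, 54.2 and 56.2 CPM in control, 52.7, 56.2, 56.1 and 56.04 with TGF-β1 and 40.9, 39.1, 42.6 and 38.7 with acetate. The first 2 groups overlapped and the acetate group lay below both. KAT2B lay at 31.6, 31.5, 29.5 and 29.2 CPM in control, 17.2, 21.5, 18.03 and 20.4 with TGF-β1 and 17.8, 18.9, 20.4 and 19.2 with acetate. Here control lay above and the other two groups overlapped. KAT2A had a log2 fold change of 0.028 with TGF-β1 (edgeR adjusted p = 0.576) and of -0.45 ± 0.041 with acetate (edgeR adjusted p = 1.2e-07). KAT2B had -0.66 ± 0.062 with TGF-β1 (edgeR adjusted p = 8.1e-08) and a value of -0.00079 with acetate (edgeR adjusted p = 0.993), with a 95% interval of -0.135 to 0.134.

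The MYST family holds KAT5 (TIP60, of the NuA4 complex), KAT6A and KAT6B (MOZ and MORF, which acetylate histone H3), KAT7 (HBO1) and KAT8 (MOF, which acetylates histone H4). All 5 fell when acetate was added and all 5 were below control. KAT6B moved most: it lay at 24.04, 26.05, 22.6 and 22.9 CPM in control, 24.3, 22.8, 21.7 and 21.2 with TGF-β1 and 13.5, 13.2, 11.5 and 13.9 with acetate. Control and TGF-β1 overlapped, and the acetate libraries lay below. Its log2 fold change with TGF-β1 was -0.084 (edgeR adjusted p = 0.203), and scaled by total counts it was -0.18 and called lower (edgeR adjusted p = 0.012). With acetate it was -0.78 ± 0.066 (edgeR adjusted p = 5.4e-08). KAT7 fell at each step, from 108, 109, 103 and 103 CPM in control to 83.98, 82.1, 79.6 and 84.5 with TGF-β1 and 64.3, 64.6, 64.7 and 65.2 with acetate, with log2 fold changes of -0.35 ± 0.036 and -0.34 ± 0.034 (edgeR adjusted p = 2.4e-07 and 3.1e-07). The 4 acetate libraries of KAT7 lay within a narrow band below all others.

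KAT6A followed the same order with smaller steps, -0.26 with TGF-β1 and -0.24 with acetate; the second was not called with scaling by total counts (-0.10, edgeR adjusted p = 0.068). KAT5 lay at 37.7 to 41.9 CPM in control, 39.3 to 43.00 with TGF-β1 and 28.05 to 28.6 with acetate. TGF-β1 did not move it past the test (0.033, edgeR adjusted p = 0.517), and with acetate it changed by -0.52 ± 0.041 on the log2 scale (edgeR adjusted p = 2.4e-08). Exons of KAT5 overlap those of RNASEH2C on the opposite strand over 1439 bases. Of the 33 genes 17 have such an overlap with some annotated gene; without strand in the counting, which no source used here states, their reads cannot be told apart. KAT8 rose by 0.11 with TGF-β1 with an edgeR adjusted p of only 0.046, a call lost with DESeq2, limma-voom, other scalings and without any of 6 single libraries (S1 to S4, S16 and S17; log2 values over all 8 such fits 0.063 to 0.13). KAT8 was lower by 0.46 ± 0.048 with acetate than with TGF-β1 alone (edgeR adjusted p = 5.7e-07). HAT1, which acetylates newly made histone H4 before its assembly into chromatin, lay at 50.4 to 54.3, 58.03 to 60.1 and 49.8 to 53.04 CPM. Its small rise with TGF-β1 (0.18) and fall with acetate (-0.20) were both called, and neither was with scaling by total counts (0.074 and -0.065).

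**Figure D2:**
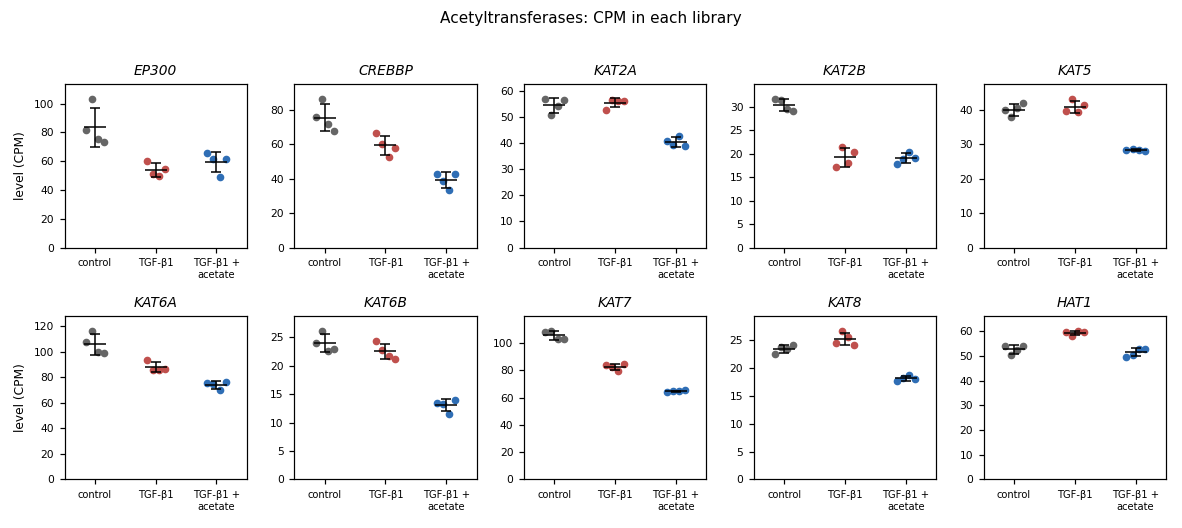
Level of each acetyltransferase gene in every library; the vertical axis is CPM on a linear scale from zero, points are libraries, and the line with bars is the mean ± SD of 4. KAT6B lies at 21.2 CPM or more in every control and TGF-β1 library and at 13.9 or less with acetate, while EP300 and KAT2B drop between control and TGF-β1.

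Of the 11 classical deacetylases, HDAC1 to HDAC11, 8 rose and 2 fell with TGF-β1, where 34.1% and 32.8% of all genes did. With acetate against TGF-β1 5 rose and 3 fell, beside 33.3% and 30.4% of all genes. Against control 7 were higher and 1 lower in cells with both, beside 36.1% and 34.4%. Their median log2 fold changes were 0.28, 0.12 and 0.28. With scaling by total counts the counts were 7 and 2, 7 and 1, and 8 and 1. Over all genes that scaling gave 6078 higher and 8676 lower of 22051, 9592 and 4699 of 22336, and 8741 and 7237 of 22742.

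HDAC1, HDAC2, HDAC3 and HDAC8 form class I, the mainly nuclear enzymes. All 4 rose with TGF-β1, by 0.27, 0.33, 0.34 and 0.28 on the log2 scale, and this held with scaling by total counts. HDAC1, a catalytic core of the NuRD, SIN3 and CoREST complexes, lay at 65.3, 61.01, 63.1 and 64.5 CPM in control, 78.00, 75.4, 77.6 and 73.4 with TGF-β1 and 95.6, 99.7, 101 and 95.6 with acetate. The 3 groups formed 3 separate steps upward. The log2 fold change was 0.27 ± 0.036 with TGF-β1 (edgeR adjusted p = 5.7e-06), 0.37 ± 0.037 with acetate against TGF-β1 (edgeR adjusted p = 2.9e-07), and 0.63 ± 0.036 against control (edgeR adjusted p = 6.9e-12).

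HDAC2, the paralogue that sits in the same complexes, parted from HDAC1 when acetate was added. It lay at 74.1, 69.03, 68.2 and 69.5 CPM in control, 89.3, 84.7, 86.8 and 89.9 with TGF-β1 and 73.2, 75.4, 76.3 and 76.1 with acetate. It was higher with TGF-β1 than in control (edgeR adjusted p = 7.7e-07). Acetate against TGF-β1 gave a log2 fold change of -0.21 ± 0.035 (edgeR adjusted p = 6.6e-05). That value was -0.080 and not called with scaling by total counts. Its remaining excess over control, 0.10 (edgeR adjusted p = 0.018), was lost without control library S2 (0.066, edgeR adjusted p = 0.126) or S3 (0.085, edgeR adjusted p = 0.066), and with DESeq2. HDAC3, the enzyme of the NCoR complex, lay at 36.9 to 40.04, 46.3 to 51.1 and 45.5 to 47.7 CPM, and HDAC8, known for deacetylating the cohesin subunit SMC3, at 16.4 to 17.3, 18.5 to 21.7 and 19.6 to 22.6. Neither passed the test with acetate against TGF-β1 (-0.046 and 0.12, edgeR adjusted p = 0.315 and 0.121), although with scaling by total counts both were called higher (0.086 and 0.25). HDAC8 was also called without acetate library S22 (0.16, edgeR adjusted p = 0.041).

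The stretch of 250 bases before the start of HDAC1, whose level rose at both steps, is given with the matches of 4 motifs in capitals: the SMAD box CAGAC, the GC box GGGCGG, the E-box CACGTG and the cyclic AMP response element TGACGTCA, each searched on both strands. It runs 5′ to 3′ along the gene and is from RefSeq (GRCh38.p14, chr1:32291833-32292082, plus strand).
HDAC1: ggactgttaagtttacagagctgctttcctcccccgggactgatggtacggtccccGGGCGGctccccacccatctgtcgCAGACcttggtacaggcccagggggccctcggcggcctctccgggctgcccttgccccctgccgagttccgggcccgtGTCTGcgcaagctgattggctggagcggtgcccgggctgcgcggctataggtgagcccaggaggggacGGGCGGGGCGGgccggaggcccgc
It holds 2 SMAD boxes and 3 GC boxes, of which 1 pair shares 1 base, and its GC content is 71.6%. Such a window was found for 29 of the 33 genes; KAT6A, KAT8, HDAC5 and SIRT7 are without one. A GC box stood in 18 of the 29 windows (62.07%), a SMAD box in 9 (31.03%), the E-box in 3 (10.34%) and the cyclic AMP response element in 0. Over all 35116 windows of that length the shares were 42.64%, 38.0%, 6.34% and 1.65%. Those are all windows of the source, whereas each of the 29 genes gave only the window nearest its start, so the sets are not alike. A match is a run of letters and not a shown binding site.

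Class IIa enzymes (HDAC4, HDAC5, HDAC7 and HDAC9) shuttle between nucleus and cytoplasm, bind MEF2 factors and have little deacetylase activity of their own. The 4 genes did not share a direction: with TGF-β1 HDAC5 and HDAC7 rose and HDAC4 and HDAC9 fell, and with acetate HDAC5 and HDAC9 rose and HDAC4 and HDAC7 fell. HDAC5 (ENSG00000108840.15, chr17:44076746-44123702 on hg38) showed the largest rise over control among the HDAC genes. It lay at 15.4, 15.2, 15.6 and 14.97 CPM in control, 28.8, 33.2, 33.9 and 30.5 with TGF-β1 and 52.4, 49.8, 52.6 and 50.6 with acetate. No library of one group reached the next. Its log2 fold change was 1.05 ± 0.054 with TGF-β1 (edgeR adjusted p = 2.7e-11), 0.71 ± 0.049 with acetate against TGF-β1 (edgeR adjusted p = 4.6e-09), and 1.75 ± 0.049 against control (edgeR adjusted p = 1.8e-16), a 3.36-fold higher level.

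HDAC9 (ENSG00000048052.21, chr7:18086949-19002416) was scarce, with 17 to 72 counts per library, and it was lowest with TGF-β1. The 4 TGF-β1 libraries serve both steps, so the fall and the rise are not independent of each other. Its levels were 1.21, 1.47, 1.35 and 1.15 CPM in control, 0.417, 0.628, 0.552 and 0.536 with TGF-β1 and 1.39, 1.33, 1.04 and 1.42 with acetate. The TGF-β1 libraries lay below both other groups, which overlapped each other. The log2 fold change was -1.27 ± 0.19 with TGF-β1 (edgeR adjusted p = 1.4e-05) and 1.29 ± 0.20 with acetate (edgeR adjusted p = 3.2e-05). The acetate group set against control gave 0.00 ± 0.15 (edgeR adjusted p = 0.9999), with a 95% interval of -0.284 to 0.284. The values are thus compatible with a difference of either sign within that interval, and equal levels are not shown.

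HDAC7 lay at 67.3, 65.7, 68.3 and 64.7 CPM in control, 81.3, 88.5, 84.2 and 86.2 with TGF-β1 and 65.7, 59.9, 64.2 and 64.6 with acetate. It was highest with TGF-β1. The log2 fold changes were 0.36 ± 0.036 with TGF-β1 and -0.41 ± 0.039 with acetate against TGF-β1 (edgeR adjusted p = 1.6e-07 and 1.8e-07). Against control the value was -0.064 (edgeR adjusted p = 0.145), and without control library S2 it was -0.095 and called (edgeR adjusted p = 0.049). Its exons overlap genes on the opposite strand, SLC48A1 among them, over 1112 bases. HDAC4 lay at 24.3 to 27.6, 21.03 to 23.6 and 17.1 to 22.1 CPM; its fall with TGF-β1 was -0.19 (edgeR adjusted p = 0.0039). The further fall with acetate, -0.17 (edgeR adjusted p = 0.040), came from overlapping groups and was lost without S15, S18, S23 or S24 (log2 values over all 8 such fits -0.23 to -0.11, edgeR adjusted p 0.0084 to 0.121) and with scaling by total counts (-0.041).

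Class IIb holds HDAC6, the cytoplasmic tubulin deacetylase, and HDAC10, a polyamine deacetylase; HDAC11 alone forms class IV. HDAC10, with 143 to 349 counts per library, lay at 3.73, 3.47, 3.65 and 3.63 CPM in control, 5.49, 6.22, 6.33 and 4.51 with TGF-β1 and 8.42, 6.37, 7.52 and 7.99 with acetate. Each group lay above the one before. The log2 fold changes were 0.65 ± 0.10 and 0.43 ± 0.11 (edgeR adjusted p = 4.1e-05 and 0.0031), and 1.07 ± 0.11 against control (edgeR adjusted p = 3.3e-08). Its exons overlap those of MAPK12 on the same strand over 2763 bases, so its counts depend on how the authors assigned shared reads. HDAC6 lay at 49.8 to 51.03, 53.2 to 58.4 and 49.9 to 54.7 CPM. Its rise with TGF-β1, 0.15 (edgeR adjusted p = 0.0023), was not called with scaling by total counts (0.043), and with acetate it gave -0.087 (edgeR adjusted p = 0.073), which was called lower with DESeq2 (-0.11), in the fit of all 12 libraries (-0.097) and without S15 (-0.13), S18 (-0.12) or S24 (-0.12), and which turned to 0.044 with scaling by total counts. Against control it gave 0.043 (edgeR adjusted p = 0.321), called higher with scaling by total counts (0.087) and upper-quartile scaling (0.092). HDAC11 lay at 6.72, 6.53, 7.69 and 7.64 CPM in control, 6.20, 6.96, 7.24 and 7.01 with TGF-β1 and 10.5, 9.96, 11.6 and 10.2 with acetate. Control and TGF-β1 overlapped (-0.051, edgeR adjusted p = 0.590), and acetate raised it by 0.63 ± 0.074 on the log2 scale (edgeR adjusted p = 1.9e-06).

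**Figure D3:**
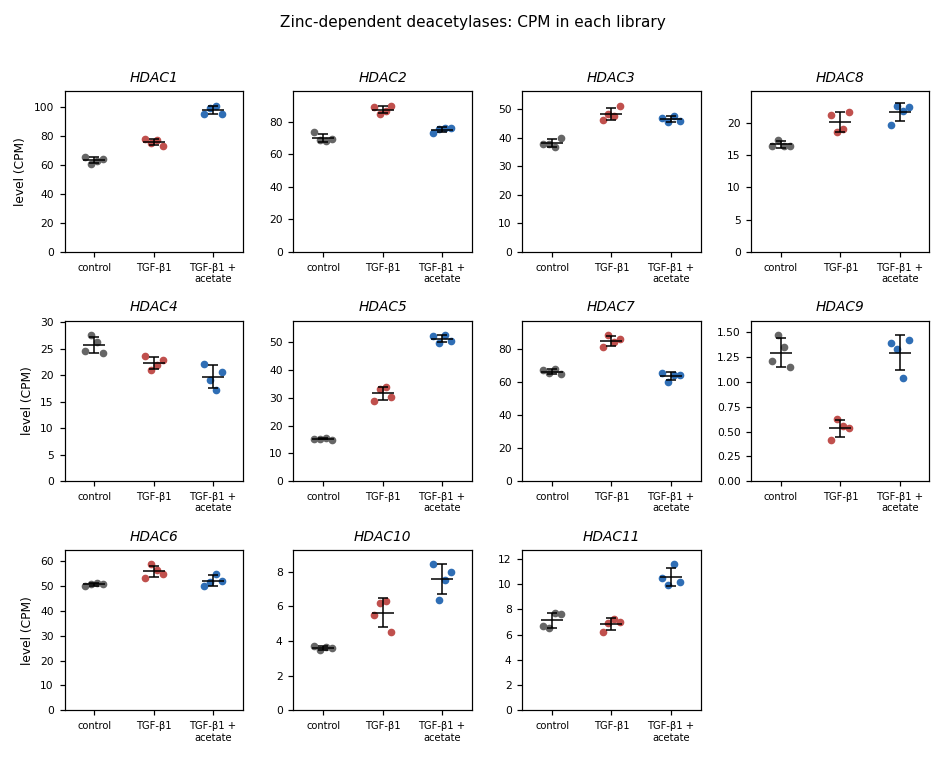
Level of each classical deacetylase gene in every library; the vertical axis is CPM on a linear scale from zero, points are libraries, and the line with bars is the mean ± SD of 4. HDAC1, HDAC5 and HDAC10 step up with TGF-β1 and again with acetate. HDAC2 and HDAC7 are highest with TGF-β1, and HDAC9 is low only in the TGF-β1 libraries.

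Sirtuins were found among both rises and falls, as were genes at large (34.1% higher and 32.8% lower with TGF-β1, 33.3% and 30.4% with acetate against it). With TGF-β1 SIRT2 and SIRT4 rose and SIRT1, SIRT5 and SIRT7 fell. With acetate against TGF-β1 SIRT2, SIRT4 and SIRT6 rose and SIRT1, SIRT3 and SIRT5 fell. Against control SIRT2, SIRT4 and SIRT6 were higher and SIRT1, SIRT3, SIRT5 and SIRT7 lower. Scaled by total counts, the 7 had 2 higher and 4 lower with TGF-β1, and 4 and 1 with acetate against TGF-β1. Over all genes that scaling gave 6078 higher and 8676 lower of 22051, and 9592 and 4699 of 22336. The median log2 fold change of the 7 was -0.024, 0.11 and -0.20 in the 3 comparisons.

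SIRT1 (ENSG00000096717.11, chr10:67884669-67918390 on hg38), the nuclear deacetylase of histones and of many transcription factors, had the largest fall below control of the 33 genes. It lay at 57.9, 55.5, 56.1 and 55.9 CPM in control, 35.6, 31.7, 34.4 and 35.2 with TGF-β1 and 20.1, 21.8, 22.6 and 21.5 with acetate. The groups stood in 3 separate steps downward. Its log2 fold change was -0.71 ± 0.041 with TGF-β1 (edgeR adjusted p = 1.4e-10), -0.66 ± 0.051 with acetate against TGF-β1 (edgeR adjusted p = 1.8e-08), and -1.39 ± 0.045 against control (edgeR adjusted p = 1.2e-15).

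Of the mitochondrial sirtuins, SIRT4 and SIRT5 moved in opposite directions and SIRT3 moved little. SIRT4 (ENSG00000089163.4, chr12:120302316-120313249 on hg38), known as a lipoamidase, lay at 0.614, 0.612, 0.792 and 0.583 CPM in control, 1.15, 1.51, 1.12 and 1.78 with TGF-β1 and 2.25, 2.34, 2.43 and 2.82 with acetate. These levels rest on 30 to 123 counts per library, yet the groups did not overlap. The log2 fold change was 1.10 ± 0.20 with TGF-β1 (edgeR adjusted p = 1.2e-04), 0.85 ± 0.16 with acetate (edgeR adjusted p = 2.5e-04) and 1.93 ± 0.17 against control (edgeR adjusted p = 6.3e-09).

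SIRT5, which removes succinyl and malonyl groups, lay at 19.9, 21.2, 21.9 and 20.8 CPM in control, 10.3, 11.4, 12.7 and 11.01 with TGF-β1 and 10.3, 10.6, 8.84 and 9.41 with acetate. With TGF-β1 it fell by 0.87 ± 0.062 on the log2 scale (edgeR adjusted p = 2.4e-09). The further -0.21 with acetate (edgeR adjusted p = 0.027) came from groups that overlapped and was lost without S17, S24 or S25 (log2 values over all 8 such fits -0.28 to -0.17, edgeR adjusted p 0.0067 to 0.078) and with scaling by total counts. Its exons overlap a gene on the opposite strand over 1045 bases. SIRT3, the main mitochondrial deacetylase, lay at 16.9 to 17.9, 16.6 to 17.7 and 14.5 to 16.2 CPM; with TGF-β1 it gave -0.024 (edgeR adjusted p = 0.677), which was -0.13 and called lower with scaling by total counts (edgeR adjusted p = 0.024). The call with acetate (-0.16, edgeR adjusted p = 0.015) was lost with scaling by total counts (-0.026).

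SIRT2, a mainly cytoplasmic deacetylase of tubulin, rose at each step, from 30.2, 32.5, 32.1 and 33.5 CPM in control to 37.2, 43.8, 40.96 and 41.6 with TGF-β1 and 53.1, 47.7, 50.5 and 48.7 with acetate (0.35 ± 0.049 and 0.30 ± 0.049 on the log2 scale, edgeR adjusted p = 8.3e-06 and 6.0e-05). SIRT6, a chromatin enzyme that deacetylates histone H3, lay at 8.74 to 9.93 CPM in control, 8.82 to 9.81 with TGF-β1 and 10.3 to 11.2 with acetate, a rise of 0.23 ± 0.063 in the last step (edgeR adjusted p = 0.0045). The nucleolar SIRT7 lay at 27.7 to 29.3, 20.6 to 23.4 and 23.4 to 24.3 CPM. It fell by 0.35 ± 0.047 with TGF-β1 (edgeR adjusted p = 5.5e-06), and with acetate it gave 0.11 (edgeR adjusted p = 0.063) although the groups lay apart; scaled by total counts that value was 0.24 and called.

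The upstream windows of SIRT4, SIRT1 and SIRT5 are shown because, among genes whose window ends within 15 bases of the gene's start, SIRT4 and HDAC1 had the largest rises over control with TGF-β1 and acetate, and SIRT1 and SIRT5 the largest falls. Each has 250 bases, 5′ to 3′ along the gene on the plus strand, from RefSeq (GRCh38.p14), with matches of the 4 motifs on either strand in capitals.
SIRT4 (chr12:120302071-120302320): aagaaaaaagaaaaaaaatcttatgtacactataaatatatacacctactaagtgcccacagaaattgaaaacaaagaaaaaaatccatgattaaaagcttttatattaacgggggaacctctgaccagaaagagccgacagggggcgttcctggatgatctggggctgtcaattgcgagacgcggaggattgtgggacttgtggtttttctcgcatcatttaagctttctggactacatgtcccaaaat
SIRT1 (chr10:67884406-67884655): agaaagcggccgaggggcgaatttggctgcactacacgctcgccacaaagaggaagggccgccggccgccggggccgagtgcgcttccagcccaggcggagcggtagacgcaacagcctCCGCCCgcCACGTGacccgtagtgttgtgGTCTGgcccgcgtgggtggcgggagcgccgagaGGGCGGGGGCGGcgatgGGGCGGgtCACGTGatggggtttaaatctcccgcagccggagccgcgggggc
SIRT5 (chr6:13574279-13574528): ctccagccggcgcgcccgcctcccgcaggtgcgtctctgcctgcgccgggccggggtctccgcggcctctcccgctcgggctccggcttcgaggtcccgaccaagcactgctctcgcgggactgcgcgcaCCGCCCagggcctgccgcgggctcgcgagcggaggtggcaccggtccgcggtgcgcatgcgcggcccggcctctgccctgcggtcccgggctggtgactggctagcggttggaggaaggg
The SIRT4 window held none of the 4 motifs, and its GC content was 39.6%. The SIRT1 window held 1 SMAD box, 4 GC boxes and 2 matches of the E-box, which reads the same on both strands and so counts once per place, with a GC content of 72%. In the SIRT5 window there was 1 GC box, and the GC content was 78%. So the gene with the largest rise had the window poorest in G and C of the 4, and the windows of the genes that fell and of HDAC1 were alike in being above 70% GC.

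BRD2 and BRD3 are BET proteins, readers whose paired bromodomains bind acetylated histones and recruit transcription elongation factors. BRD2, the gene with the highest level per kilobase of the 33 in control, fell at both steps. Its levels were 178, 177, 179 and 177 CPM in control, 148, 152, 148 and 150.0 with TGF-β1 and 109.8, 105, 105 and 109 with acetate. The 3 groups were well apart. The log2 fold changes were -0.25 ± 0.031 and -0.47 ± 0.032 (edgeR adjusted p = 2.5e-06 and 3.8e-09), and -0.73 ± 0.031 against control (edgeR adjusted p = 6.2e-14).

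BRD3 was highest with TGF-β1, and its mean with acetate lay between those of control and TGF-β1. It lay at 36.6, 33.8, 32.2 and 32.8 CPM in control, 46.7, 43.03, 46.6 and 48.2 with TGF-β1 and 40.7, 36.04, 34.4 and 39.8 with acetate. The TGF-β1 libraries lay above both other groups, while control and acetate overlapped. The log2 fold changes were 0.45 ± 0.048 with TGF-β1 and -0.28 ± 0.054 with acetate (edgeR adjusted p = 3.1e-07 and 2.7e-04). The remaining excess over control, 0.16 (edgeR adjusted p = 0.018), was lost without S2, S3, S4, S22 or S25 (log2 values over all 8 such fits 0.12 to 0.20, edgeR adjusted p 0.0032 to 0.077). Exons of BRD3 and of BRD3OS on the opposite strand overlap over 1281 bases.

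Among the corepressor scaffolds, NCOR1, which brings HDAC3 to nuclear receptors, lay at 254, 281, 248 and 237 CPM in control, 189, 162, 175 and 177 with TGF-β1 and 168, 164, 144 and 162 with acetate. Both treated groups were below control, and they overlapped each other. With TGF-β1 it fell by 0.53 ± 0.053 on the log2 scale (edgeR adjusted p = 1.7e-07). The step with acetate, -0.13 ± 0.053 (edgeR adjusted p = 0.041), was lost without S15, S24 or S25 (log2 values over all 8 such fits -0.19 to -0.088, edgeR adjusted p 0.0067 to 0.108) and lay at 0.00053 with scaling by total counts.

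RCOR1, the CoREST scaffold that joins HDAC1 and HDAC2 to the demethylase KDM1A, was lowest with TGF-β1 and in between with acetate. It lay at 66.1, 60.4, 61.6 and 59.7 CPM in control, 47.5, 45.4, 41.7 and 47.4 with TGF-β1 and 53.8, 48.96, 49.7 and 52.5 with acetate, with changes of -0.44 ± 0.047 and 0.18 ± 0.048 on the log2 scale (edgeR adjusted p = 3.5e-07 and 0.0034). SIN3A, the scaffold of the SIN3 complex, went the other way, at 88.3 to 99.2 CPM in control, 101 to 112 with TGF-β1 and 82.8 to 91.7 with acetate. Its rise was 0.20 ± 0.045 (edgeR adjusted p = 0.0010; 0.093 and not called with scaling by total counts) and its fall -0.26 ± 0.044 (edgeR adjusted p = 9.7e-05).

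**Figure D4:**
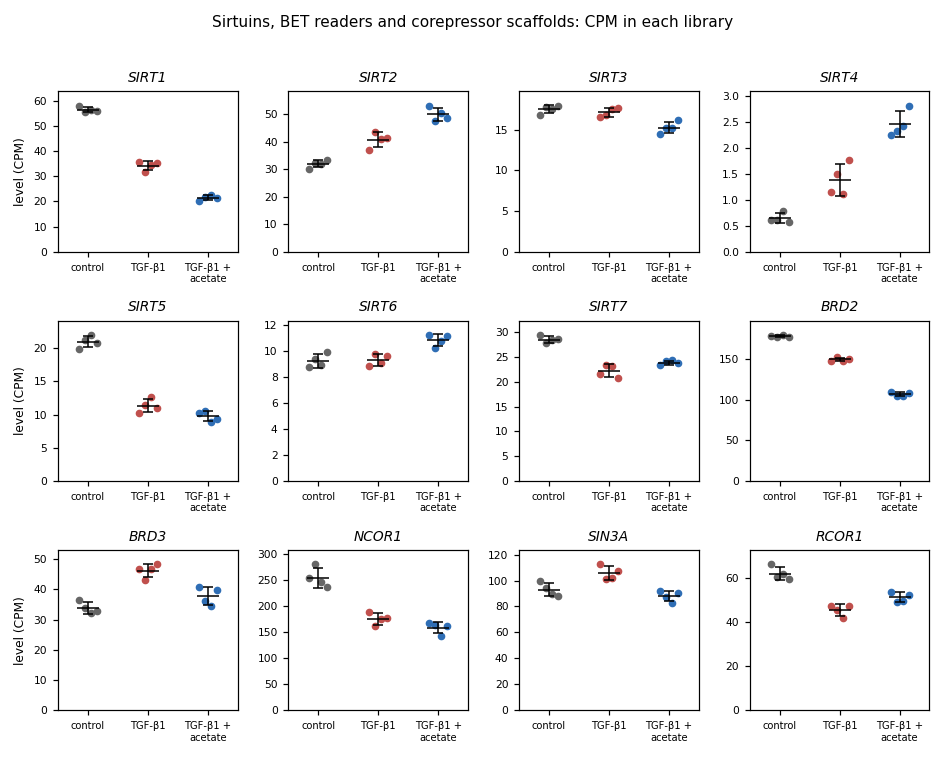
Level of each sirtuin, BET reader and corepressor scaffold gene in every library; the vertical axis is CPM on a linear scale from zero, points are libraries, and the line with bars is the mean ± SD of 4. SIRT1 and BRD2 step down at each treatment, SIRT2 and SIRT4 step up at each, and SIRT5 and NCOR1 drop mainly between control and TGF-β1.

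Between genes, levels were compared as CPM per kilobase of the longest annotated transcript. In control cells the highest of the 33 were BRD2 at 36.4 ± 0.207, HDAC1 at 26.3 ± 0.785 and NCOR1 at 23.8 ± 1.74 CPM per kb (mean ± SD, n = 4). The lowest were HDAC10 at 1.35 ± 0.0402, SIRT4 at 0.534 ± 0.0784 and HDAC9 at 0.133 ± 0.0150. With all annotated exons together as the length, BRD2 was still highest and HDAC9 lowest, and HDAC8 took the place of HDAC10 among the lowest 3. With acetate and TGF-β1 the order at the top had changed: HDAC1 was at 40.7 ± 1.13, HDAC3 at 23.7 ± 0.523 and BRD2 at 21.9 ± 0.485 CPM per kb. The place of HDAC3 above BRD2 depends on the length used. HDAC3 has 1959 bases in its longest transcript and 4631 in all annotated exons together, and with the latter length BRD2 lay above HDAC3. HDAC5 went from 2.87 ± 0.0520 to 9.64 ± 0.258, and SIRT1 from 13.8 ± 0.256 to 5.25 ± 0.255.

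Because paralogues often stand in for each other in a complex, the ratio of levels per kilobase within a library was compared for 9 pairs, in 3 comparisons each. Such a ratio does not depend on the scaling of the library. Of the 27 tests, 25 gave groups that did not overlap and the smallest p that 4 libraries against 4 can give (exact two-sided permutation test, p = 0.0286, Benjamini-Hochberg adjusted over 27 tests 0.0309). Single genes stood apart in 57.4% to 64% of all genes tested in these comparisons, and no share for other pairs of genes was computed, so the count is not shown to be particular to paralogues. The exceptions were HDAC1 over HDAC2 with TGF-β1 (exact p = 0.200) and SIRT6 over SIRT7 with acetate (exact p = 0.143).

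HDAC4 over HDAC5 moved far: the ratio of CPM per kilobase was 0.948, 1.07, 0.999 and 0.960 in the control libraries, 0.485, 0.376, 0.384 and 0.444 with TGF-β1 and 0.250, 0.227, 0.193 and 0.242 with acetate. So these class IIa genes had near equal levels per kilobase in control, and HDAC5 had several times the level of HDAC4 with acetate. EP300 over CREBBP was 1.21, 1.35, 1.19 and 1.23 in control, 1.03, 0.950, 1.07 and 1.07 with TGF-β1 and 1.73, 1.80, 1.67 and 1.63 with acetate. The ratio was lowest with TGF-β1 and highest with acetate: EP300 was lower with TGF-β1 than in control, and CREBBP was lower still with acetate. HDAC1 over HDAC2 was 3.62, 3.62, 3.79 and 3.80 in control, 3.58, 3.65, 3.66 and 3.34 with TGF-β1 and 5.36, 5.42, 5.42 and 5.15 with acetate, where only the acetate libraries stood apart.

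The geometric mean of KAT2A over KAT2B went from 2.78 in control to 4.47 with TGF-β1 and 3.29 with acetate. KAT6A over KAT6B went from 4.00 to 3.53 and 5.15. BRD2 over BRD3 went down at both steps, from 6.08 to 3.75 and 3.29, as did HDAC6 over HDAC10, from 7.14 to 5.10 and 3.53. SIRT6 over SIRT7 rose from 0.682 to 0.883 and 0.956. HDAC4 over HDAC9 went from 21.5 to 45.7 and 16.5, where HDAC9 carries the counting error of a scarce gene.

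**Figure D5:**
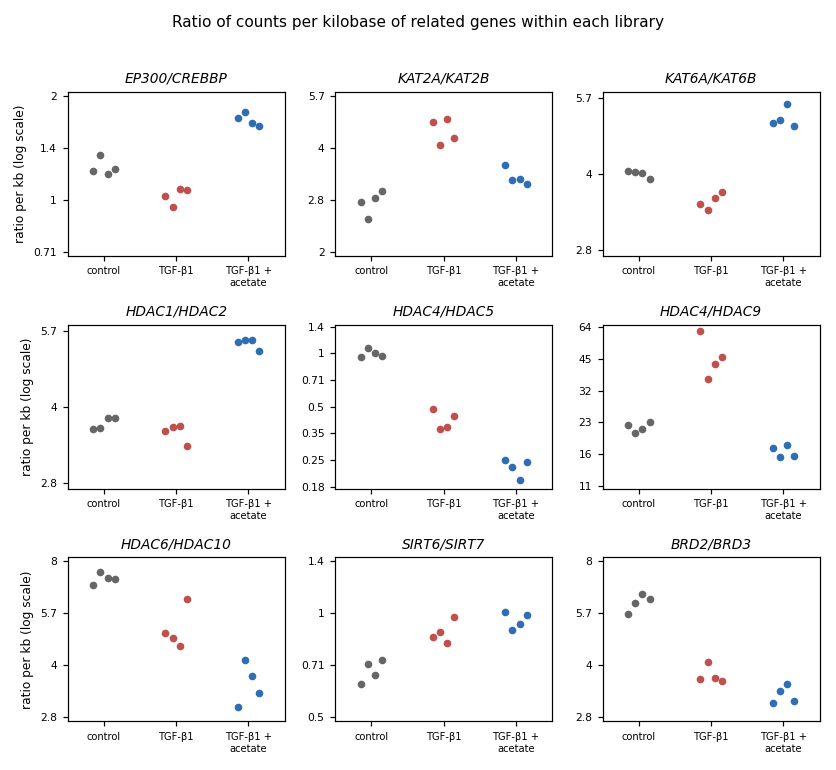
Ratio of the levels of 9 paralogue pairs in every library; the vertical axis is the ratio of CPM per kilobase on a log scale with its own range in each panel, and points are libraries. HDAC4 over HDAC5 falls from near 1 in control to about 0.23 with acetate, and EP300 over CREBBP is lowest with TGF-β1 and highest with acetate.

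The partners of these enzymes were counted from 12 further lists. When acetate was added to TGF-β1, the subunits that go with acetyltransferases fell in most cases: of the SAGA and ATAC subunits 15 of 19 fell and 1 rose, of the NuA4 (TIP60) subunits 13 of 16 fell and 1 rose, and of the scaffold subunits of the MYST enzymes 15 of 17 fell and 0 rose. Their median log2 fold changes were -0.36, -0.45 and -0.39, beside 0.03 for all genes, of which 33.3% rose and 30.4% fell. With scaling by total counts the counts were 10 lower and 2 higher, 12 and 2, and 14 and 0. All 22336 genes had 4699 lower and 9592 higher with that scaling. With TGF-β1 against control the same lists were mixed, with 7 higher and 6 lower, 7 and 4, and 6 and 4. Total-count scaling gave 4 and 8, 6 and 7, and 4 and 6 there, beside 6078 higher and 8676 lower of all 22051 genes. By the smallest p with acetate, ZZZ3 and TADA2A (ATAC and SAGA) changed by -0.63 ± 0.037 and -0.88 ± 0.056, EPC2 and MORF4L2 (NuA4) by -1.10 ± 0.063 and -0.55 ± 0.029, and JADE1 and MSL3 by -0.68 ± 0.035 and -0.57 ± 0.039 on the log2 scale (edgeR adjusted p at most 3.6e-09).

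The subunits that go with deacetylases were counted the same way, beside 33.3% higher and 30.4% lower of all genes. With acetate against TGF-β1, 7 of 11 NuRD subunits fell and 1 rose, 7 of 13 SIN3 subunits fell and 4 rose, 3 of 8 CoREST subunits fell and 3 rose, and of the NCoR/SMRT and MiDAC subunits 5 of 7 rose and 2 fell. Scaled by total counts, the NuRD counts turned to 2 lower and 3 higher and the SIN3 counts to 3 and 5. The CoREST counts turned to 1 and 4, and the NCoR/SMRT and MiDAC counts to 1 and 5. All 22336 genes had 4699 lower and 9592 higher with that scaling. The 2 NuRD genes with the smallest p were the remodeller CHD3 (-0.87 ± 0.053) and MBD3 (-0.84 ± 0.057). TRERF1, of MiDAC, changed by 1.22 ± 0.085 with acetate against TGF-β1 and by -0.99 ± 0.094 with TGF-β1 against control. KDM1A, the demethylase of CoREST, rose by 0.76 ± 0.038 with TGF-β1 (edgeR adjusted p = 2.4e-11).

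Of 24 other bromodomain and YEATS readers 6 rose and 12 fell with acetate, with ZMYND8 at 0.96 ± 0.035 and ZMYND11 at -0.82 ± 0.033. Of 13 other acetyltransferases 4 rose and 6 fell. All genes with TMM scaling had 33.3% higher and 30.4% lower. Scaled by total counts, the readers had 6 higher and 9 lower and the acetyltransferases 5 and 4. All 22336 genes had 9592 higher and 4699 lower with that scaling. The 4 genes of acetyl-CoA supply held larger changes. ACSS2, the cytosolic and nuclear acetyl-CoA synthetase, lay at 14.6 to 15.3 CPM in control, 11.5 to 14.3 with TGF-β1 and 30.4 to 33.2 with acetate, a rise of 1.36 ± 0.064 in the last step (edgeR adjusted p = 6.0e-11). ACSS1, its mitochondrial counterpart, lay at 9.08 to 11.7, 3.65 to 4.72 and 7.42 to 8.70 CPM, and ACLY, which makes acetyl-CoA from citrate, at 864 to 893, 1818 to 1906 and 1217 to 1318. Of these 4 genes 3 rose and 1 fell with acetate against TGF-β1.

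Sirtuins consume NAD+, and of 9 genes of its supply 4 rose and 3 fell with TGF-β1, and 3 rose and 3 fell with acetate against it. All genes with TMM scaling had 34.1% higher and 32.8% lower, and 33.3% and 30.4%. With scaling by total counts the 9 genes had 3 higher and 5 lower, and 6 and 2. Over all genes that scaling gave 6078 higher and 8676 lower of 22051, and 9592 and 4699 of 22336. NAMPT, the rate-limiting enzyme of NAD+ salvage, fell by 1.68 ± 0.033 on the log2 scale with TGF-β1 (edgeR adjusted p = 1.2e-16) and lay at 0.029 ± 0.038 with acetate against TGF-β1 (edgeR adjusted p = 0.529). NNMT, which uses up nicotinamide, fell by 2.52 ± 0.047 with acetate (edgeR adjusted p = 4.4e-15). Of 5 genes known to be induced by deacetylase inhibitors 3 rose and 2 fell with acetate: the cell cycle inhibitor CDKN1A changed by 0.95 ± 0.040 and the actin-binding GSN by 1.19 ± 0.055, while the linker histone H1F0 fell by 0.47 ± 0.047. GSN was also higher, by 1.41 ± 0.056, with TGF-β1 alone than in control.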

How the data were processed

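Libraries were made from total RNA with strand kept, per the labels. The submitters' processing notes name bcl2fastq, HISAT2, limma and hg38; versions, the counting tool and its strand setting are not given in these sources. The authors deposited, per the file headers, 2 tables of raw counts per gene (8 libraries each, with the TGF-β1 columns in both) and their own log2 fold changes; their p and q values and 32 further columns of values per library were not used. In the authors' deposited table the log2 fold change had the sign of the one computed here for 33 of 33 genes with TGF-β1 and 32 of 33 with acetate.

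Columns carry codes that match no label (control has S1 to S4, TGF-β1 has S15 to S18, acetate has S22 to S25); they were placed by the tables that hold them and the tables' names, and replicate numbers could not be matched. Pairs of libraries within a group differed beyond counting noise (chi-square per degree of freedom 3.95 to 17.3), so none was a plain resequencing of another. This cannot tell separate cultures from technical repeats, since separate preparations of the same RNA can also differ beyond counting noise.

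Counts were tested with edgeR 4.0.16 in R 4.3.3: filterByExpr (minimum count 10, minimum total 15), TMM factors, two-sided quasi-likelihood tests, Benjamini-Hochberg adjustment over all genes tested, threshold 0.05. The first 2 comparisons were fitted within their table, and acetate against control in all 12 libraries on 23771 shared genes. Standard errors come from the fold change and its F statistic. The 95% intervals use these standard errors with the multiplier of a normal distribution, so they are somewhat narrower than the quasi-likelihood test would give. CPM use TMM-adjusted totals of the joint fit; lengths and overlaps come from GENCODE release 29, to which all 33 genes matched. Alternatives were DESeq2 1.42.0, limma-voom (limma 3.58.1), total-count and upper-quartile scaling, no filter, other sets of libraries in the fit, and each library left out. The script was tested on simulated counts. The genes and lists were chosen with earlier results of these data known. Of each further list the 2 genes with the smallest p per comparison could be named; some are left undescribed, and 146 of their 147 symbols were found. A gene that the plan names for the treatment check is not reported here.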

Additional observations from a re-analysis of the deposited data

Results flagged for a closer look

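In 99 groups of 4 libraries (33 genes in 3 groups), 5 had 1 library whose gap to its nearest neighbour took more than 0.829 of the group's range, the 95% critical value of Dixon's test for 4 values; chance gives about 1 in 20. HDAC8 in control library S2 was at 17.3 CPM, with the nearest at 16.4 (0.934 of the range). SIRT4 in control library S3 was at 0.792 CPM, with the nearest at 0.614 (0.851 of the range). KAT2A in TGF-β1 library S15 was at 52.7 CPM, with the nearest at 56.0 (0.945 of the range). In the same library KAT6A was at 93.7 CPM, with the nearest at 86.4 (0.919 of the range). HAT1 in TGF-β1 library S16 was at 58.0 CPM, with the nearest at 59.8 (0.834 of the range). Without S2 the log2 fold change of HDAC8 with TGF-β1 was 0.27 (main value 0.28), and without S3 that of SIRT4 was 1.17 (main value 1.10). Without S15 KAT6A gave -0.23 with acetate against TGF-β1 (main value -0.24) and KAT2A gave -0.49 (main value -0.45), and without S16 HAT1 gave -0.23 (main value -0.20). Each of these was called with and without the library (edgeR adjusted p below 0.05).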

How the results depend on the processing

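No paired analysis was possible because the count columns carry no replicate number that could be matched to the labels. The count of genes called lower with acetate against TGF-β1 went from 18 to 11 with scaling by total counts; each other count of the 33 stayed within 1.5 times of its main value under the settings run. The sign of the log2 fold change turned in 1 called gene, NCOR1, and in genes that were not called. With total-count scaling KAT2A was at -0.075, KAT5 at -0.069 and SIRT6 at -0.089 with TGF-β1; with acetate against TGF-β1 KAT2B was at 0.13, HDAC3 at 0.086, HDAC6 at 0.044 and NCOR1 at 0.00053; HAT1 against control was at 0.0087. With upper-quartile scaling KAT2B was at 0.045, HDAC3 at 0.00041 and HAT1 against control at 0.013. With limma-voom KAT2B was at 0.0091 and HDAC9 against control at -0.00026. HDAC9 against control was at -0.021 with DESeq2, -0.0024 with no filter and -0.019 with only the 8 libraries compared. With 1 library left out, the values ran from -0.040 to 0.041 for SIRT6, -0.038 to 0.052 for KAT2A and -0.026 to 0.053 for KAT5 with TGF-β1, from -0.077 to 0.030 for KAT2B with acetate against TGF-β1 and from -0.058 to 0.093 for HDAC9 against control. The cause was not tested. Levels per kilobase of all annotated exons together, which is a longer denominator, differed from those of the longest transcript by more than 1 SD for 32 of 33 genes. Depth limits HDAC9 and SIRT4 most.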

Other observations

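Within groups, EP300, CREBBP, KAT6A, HDAC4 and NCOR1 shared some of their highest and lowest libraries. These 5 genes were picked after their values were seen, so the shared libraries are no test of a common pattern. Control library S2 and TGF-β1 library S15 held the group's highest level of each of the 5. Control library S4 and acetate library S24 held the lowest of each. The remaining extremes were not shared. In the TGF-β1 group EP300 and CREBBP were lowest in S17, and KAT6A, HDAC4 and NCOR1 in S16. In the acetate group KAT6A was highest in S25, and EP300, CREBBP, HDAC4 and NCOR1 in S22. EP300 was at 103 CPM in S2 and 73.6 in S4, and at 49.1 in S24 where the other acetate libraries had 61.5 to 65.6. NCOR1 was at 281 CPM in S2, 237 in S4 and 144 in S24. Their longest transcripts are 8990 to 10803 bases long. Of other genes of such length, HDAC9 (9705 bases) was highest in S2 and lowest in S4 and S24 but lowest in S15, KAT7 (9644 bases) was highest in S2 and lowest in S4 but lowest in S17 and S22 in the other groups, and HDAC2 (9874 bases) was highest in S1 and S24 and lowest in S3. The differences between libraries of 1 group touch the calls of EP300, HDAC4 and NCOR1 with acetate against TGF-β1, each of which changed when S24 or S15 was left out. What these libraries share was not tested.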
